A study of Mus musculus with 2 samples.

Results

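Lymphatic endothelial cells of peripheral lymph nodes were compared with those of mesenteric lymph nodes, in cells taken by their markers from single-cell RNA sequencing of sorted lymph-node endothelium. Of 10612 deposited cell barcodes, 3779 were lymphatic by the marker rule, 2884 of them from peripheral and 895 from mesenteric nodes. A cell was kept with at least 500 detected genes, at most 10% mitochondrial counts, and a leading hashtag of at least 10 counts and at least 3 times the next tag. Its summed counts of Prox1, Pdpn, Mmrn1 and Lyve1 then had to reach 2 and exceed those of Flt1, Ly6c1 and Cd34. The cells were thus chosen by the measured counts of these 7 genes, whose levels are given as a description only. Just inside the threshold lay 171 cells with a lymphatic sum of 2, and just outside it lay 119 cells with a sum of 1 above a blood sum of 0, while 18 cells had equal sums.

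The mice were wild type (WT) or Xbp1-KO, and all groups, controls included, had received tamoxifen. Each of 2 droplet libraries held 4 hashtagged pools, namely WT peripheral (tag HT4), WT mesenteric (HT5), Xbp1-KO peripheral (HT6) and Xbp1-KO mesenteric nodes (HT7). The labels give no Cre line, no number of animals, no age and no sex, and they describe tissue digestion for pooled peripheral nodes alone, followed by depletion of CD45-positive cells and a sort for endothelium. How the mesenteric nodes were digested is not given in the sources used here. Counts of unique molecular identifiers (UMIs, which mark single captured RNA molecules) were summed over the lymphatic cells of each pool in each library, giving 4 peripheral and 4 mesenteric sums. Nothing in the labels says that the libraries came from separate animals. Genes of the sex chromosomes, given below, did differ between the libraries of each genotype. The number of animals in a sum is not given, so p-values measure only the spread between these sums.

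Lymphatic endothelium lines the sinuses through which lymph crosses a node. The floor of the subcapsular sinus lies over the lymphocyte-rich cortex, the ceiling lies under the capsule, and medullary and paracortical sinuses collect the outflow; cells of these places carry different scavenger receptors, chemokines and adhesion molecules. Peripheral nodes drain skin and muscle, whereas mesenteric nodes drain the intestine, whose lymph carries absorbed lipid and retinoids. In a sum over cells, a smaller share of cells of 1 kind and less RNA in each such cell cannot be told apart.

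The 8 sums held 65 to 1314 cells and 426851 to 6930119 UMIs, with a median of 5008 to 7384 UMIs per cell. The smallest was the sum labelled WT mesenteric of library 2. Lymphatic cells made up 39.1% to 55.2% of the filtered cells of the peripheral pools and 15.4% to 25.1% of the mesenteric pools, shares that the sort and the marker rule can set. Of 12 lymphatic markers that the rule did not use, 9 were higher in every lymphatic sum than in every sum of blood endothelial cells gated the opposite way. Flt4, the receptor for VEGF-C, lay between 213 and 354 CPM (UMIs of the gene scaled to a common total per sum) in the lymphatic sums and between 21.4 and 59.1 CPM in the blood sums. Reln, another lymphatic marker, lay between 37.5 and 93.4 CPM against at most 1.94 CPM. The other 3 markers did not separate the cells this way: Ccl21a, at 148 to 902 CPM against 216 to 9786 CPM, and Nrp2, at 145 to 273 against 131 to 193 CPM, overlapped, and Sox18, at 187 to 265 against 412 to 769 CPM, was lower in every lymphatic sum. Among the gate genes, Prox1, the lymphatic identity factor, stood at 746 ± 73.7 CPM (SD, n = 4 sums) in peripheral and 658 ± 21.9 CPM in mesenteric cells. Lyve1, a hyaluronan receptor, was at 1154 ± 207 and 1193 ± 434 CPM in the same order. Mmrn1 was at 917.1 ± 108.5 and 663 ± 221.6 CPM, and Pdpn at 106.2 ± 13.33 and 84.56 ± 7.696 CPM, both with higher means in peripheral cells. Xbp1 lay between 100 and 127 CPM in 3 of the 4 WT sums and between 50.8 and 54.4 CPM in the Xbp1-KO sums. The sum labelled WT mesenteric of library 2 stood apart from the other WT sums at 51.5 CPM, a level within those of Xbp1-KO, so Xbp1 goes against the label of that sum. Which part of Xbp1 was deleted is not given in the sources used here, and UMIs from outside a deleted part check nothing. Without that sum 959 genes were called between tissues and 230 within WT, against 985 and 410 with it, and 26 differed between genotypes, against 25. The gene Xist, expressed from the inactive X chromosome, was at 962 to 1164 CPM in the Xbp1-KO sums of library 1 and at 841 to 1112 CPM in the WT sums of library 2, and at most 43.5 CPM in the other 4 sums. Both tissues of each library and genotype thus carried the same sex pattern. The Y-linked gene Ddx3y was at 112 and 107 CPM in the WT sums of library 1 and at 0 in those of library 2. In Xbp1-KO it was at most 1.01 CPM in library 1 and at 125 and 118 CPM in library 2. The libraries of a genotype thus held cells of animals of different sex.

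Of the gene lists examined, most called matrix genes were higher in peripheral lymphatic cells, and most called lipid, interferon response and chemokine genes were higher in mesenteric ones, with Postn, Spock3, Pdk4 and Mgp among the largest changes. Of 10269 genes tested, 985 differed at an adjusted p under 0.05 (9.59%), of which 380 were higher in peripheral cells (3.7%) and 605 in mesenteric cells (5.89%). This split depended on the processing. With limma on log2(CPM + 5) of the same sums, an alternative chosen after seeing the data, 419 were higher in peripheral and 272 in mesenteric cells, and with no filter on low counts 619 and 641. The test was edgeR's quasi-likelihood test with tissue, genotype and library in the model and Benjamini-Hochberg adjustment over all genes tested. A difference of at least 2-fold was fitted for 188 of the called genes, 75 higher in peripheral and 113 in mesenteric cells. The median log2 fold change over all genes tested was -0.0045, and 5059 of them were higher in peripheral cells. In all that follows, a log2 fold change is peripheral over mesenteric, so a negative value means a higher level in mesenteric cells, and a value after ± is its standard error. The number of calls depended on single sums and libraries: it was 257 without library 1, 590 without library 2 and 393 without the WT mesenteric sum of library 1. It was 461, 594 and 597 without the Xbp1-KO peripheral or mesenteric sum of library 1 or the WT peripheral sum of library 2.

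The 30 genes with the largest changes, 15 in each direction, were those with a mean of at least 20 CPM and the same direction in all 4 pairs of peripheral and mesenteric sums from 1 library and genotype. All 15 that were higher in peripheral cells, and 11 of the 15 higher in mesenteric cells, had peripheral and mesenteric sums that did not overlap in CPM. Over all genes tested, 1263 had sums that did not overlap (12.3%), 885 with peripheral above (8.62%) and 378 with mesenteric above (3.68%). All 30 lie in protein-coding genes placed in GENCODE M21 on GRCm38.

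**Figure D1:**
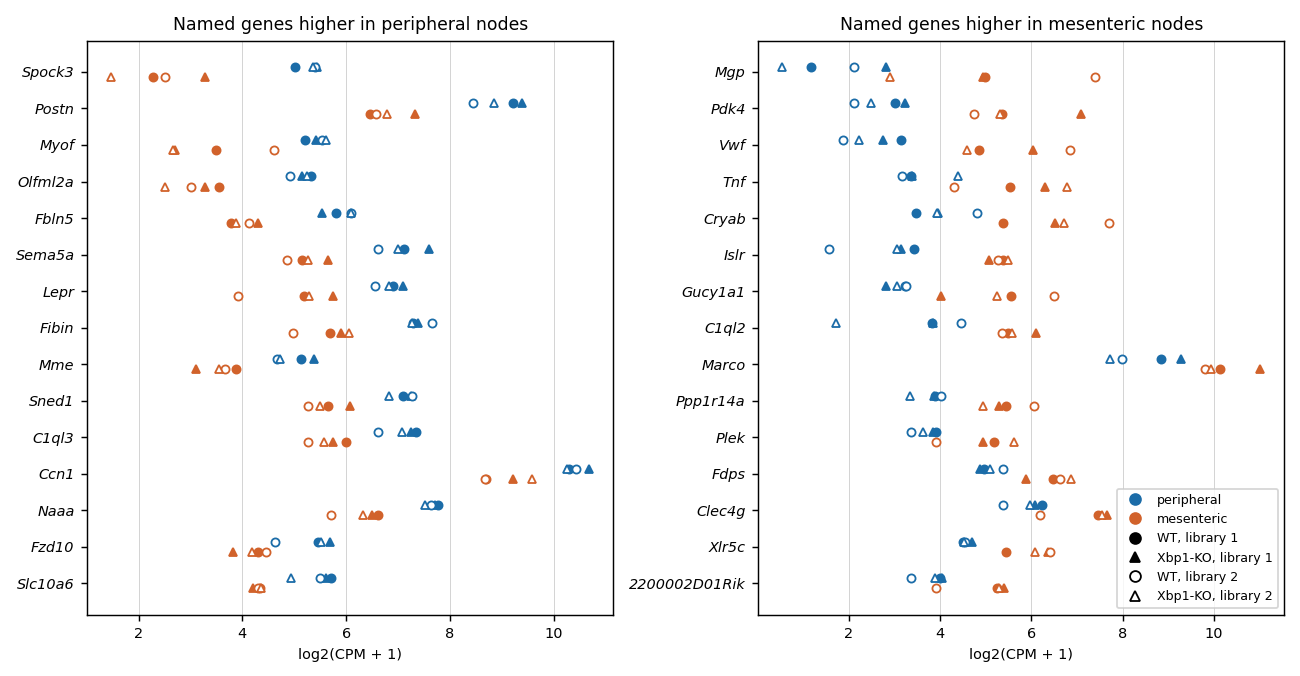
Level of each of the 30 named genes in every sum, as log2(CPM + 1), with peripheral sums and mesenteric sums in different colours and the genes higher in either tissue in separate panels. Each point is 1 sum of lymphatic cells. Postn lies at 347 to 667 CPM in peripheral and 86.8 to 159 CPM in mesenteric sums, while the points of Tnf, Plek, Clec4g and 2200002D01Rik overlap.

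Postn, which encodes the matricellular protein periostin (ENSMUSG00000027750, chr3:54361109-54391037), had the smallest adjusted p of the matrix genes. Its peripheral sums held 589, 667, 347 and 457 CPM, in the order WT and Xbp1-KO of library 1 and then WT and Xbp1-KO of library 2, and its mesenteric sums held 86.8, 159, 93.7 and 109 CPM in the same order. Every peripheral sum lay above every mesenteric sum, and the log2 fold change was 2.17 ± 0.13 (adjusted p = 1.60e-08). With each cell thinned to 3000 UMIs, 22.2% to 39.4% of peripheral and 12.1% to 18.5% of mesenteric lymphatic cells had a Postn UMI, against 0% to 4.84% of blood endothelial cells. Thinning left out 0 to 129 shallower lymphatic and 123 to 764 shallower blood cells per sum. Before thinning the ranges were 24.5% to 41.3% and 15.5% to 21.5%. Spock3, which encodes the secreted proteoglycan testican-3 (chr8:62951009-63357103), had the largest change in this direction. It was at 31.4, 42.3, 41.0 and 40.3 CPM in peripheral and 3.85, 8.75, 4.69 and 1.77 CPM in mesenteric sums. The sums did not overlap, with a log2 fold change of 3.12 ± 0.27 (adjusted p = 1.97e-06). Fbln5, whose protein takes part in elastic fibre assembly, held 54.6, 45.5, 67.4 and 67.3 CPM in peripheral and 12.8, 18.6, 16.4 and 13.6 CPM in mesenteric sums. Its groups were likewise apart, by 1.90 ± 0.17 on the log2 scale (adjusted p = 1.97e-06).

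Several genes of signalling at the cell surface were among the 15 higher in peripheral cells. Sema5a, a transmembrane semaphorin of axon and vessel guidance, held 138, 192, 96.5 and 128 CPM in peripheral and 34.7, 49.2, 28.1 and 37.3 CPM in mesenteric sums. Its sums did not overlap, and the log2 fold change was 1.83 ± 0.11 (adjusted p = 1.60e-08). Lepr, the leptin receptor, held 118, 136, 92.5 and 112 CPM against 35.5, 52.5, 14.1 and 37.9 CPM. It was higher in peripheral cells by 1.57 ± 0.13 (adjusted p = 1.67e-06), again without overlap. Ccn1, a matricellular protein bound by integrins, held 1260, 1645, 1374 and 1224 CPM in peripheral and 415, 589, 408 and 765 CPM in mesenteric sums. The highest mesenteric sum was that of Xbp1-KO library 2, and the log2 fold change was 1.30 ± 0.13 (adjusted p = 5.18e-06). The other named genes of this direction had log2 fold changes from 1.14 for Slc10a6, a transporter of sulfated steroids (0.76 without library 1), to 2.15 for Myof, a ferlin of membrane repair. They include Mme, the peptidase neprilysin (1.41), the matrix glycoprotein gene Sned1 (1.40), Naaa, a lysosomal amidase of N-acylethanolamines (1.21), and the Wnt receptor gene Fzd10 (1.18). Olfml2a (2.04), Fibin (1.54) and C1ql3 (1.33) complete the group.

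Of 61 listed matrix genes 48 were tested, and 18 were higher in peripheral and 4 in mesenteric cells, with a median log2 fold change of 0.27 against -0.0045 for all genes and 22 calls against 9.59% of all genes. The 18 include the laminin, perlecan and agrin genes Lama4 (0.37), Lamc1 (0.35), Hspg2 (0.37) and Agrn (0.30, past the threshold in 7 of 29 alternatives), the elastin gene Eln (0.39), and Tnc, tenascin-C (0.72). Itih5, which encodes a hyaluronan-associated protein and served as a sinus marker, was at 82.4, 65.2, 63.4 and 60.9 CPM in peripheral and 25.7, 27.3, 21.1 and 43.8 CPM in mesenteric sums (1.07 ± 0.18, adjusted p = 0.00114). Fbln2 had a log2 fold change of 0.92 (adjusted p = 0.00309). With limma on cells of 4 marker ranges at equal weight (the cells of no range counted as 1) it was 0.03, and with the 3 ranges described below 0.94. The 4 matrix genes higher in mesenteric cells were Mgp, Igfbp5 (-0.85), the fibronectin gene Fn1 (-0.60) and Emilin1 (-0.54). Sparc (0.10, adjusted p = 0.599) and Mmrn2 (0.08, adjusted p = 0.663), which had the highest levels among uncalled members, did not pass the test.

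Among the 15 named genes higher in mesenteric cells, Mgp had the largest change and the largest standard error in the main fit. Without the sum labelled WT mesenteric of library 2 it was at -2.99, and Pdk4 was at -3.36. Mgp encodes matrix Gla protein, an inhibitor of calcification (chr6:136872435-136875823). Its mesenteric sums held 30.8, 29.5, 166 and 6.51 CPM and its peripheral sums 1.27, 6.06, 3.30 and 0.458 CPM. The groups did not overlap, though the lowest mesenteric and the highest peripheral sum lay close together, and the log2 fold change was -3.40 ± 0.68 (adjusted p = 0.00437). Without library 1 it was -5.42. Of its 181 UMIs in mesenteric cells 63 remained without the cells that held a blood gate UMI, and of its 55 in peripheral cells 23, which put it below the count filter and left no value. Vwf, von Willebrand factor (chr6:125546774-125686679), held 27.8, 64.5, 115 and 23.1 CPM in mesenteric and 7.80, 5.77, 2.64 and 3.66 CPM in peripheral sums. It was higher in every mesenteric sum, by -3.03 ± 0.42 on the log2 scale (adjusted p = 0.000178). Gucy1a1, a subunit of the nitric oxide receptor guanylate cyclase, held 46.2, 15.3, 89.0 and 37.3 CPM against 8.34, 6.06, 8.59 and 7.32 CPM. Its log2 fold change was -2.45 ± 0.22 (adjusted p = 2.05e-06), with no overlap. Cryab, a small heat shock protein, had -2.56 (adjusted p = 8.20e-06), Islr -2.46, C1ql2 -2.10 and Ppp1r14a, an inhibitor of myosin phosphatase, -1.68. Xlr5c (-1.49), a gene of the X chromosome, also had sums that did not overlap, while Plek (-1.57) and 2200002D01Rik (-1.46) had sums that did.

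Of 31 tested genes of lipid metabolism 15 differed between tissues and 16 did not pass the test, against 9.59% of all genes called and 5.89% higher in mesenteric cells. Cholesterol synthesis is driven by SREBP2, the product of Srebf2, when cell sterol is low, whereas the sterol exporters Abca1 and Abcg1 are driven by LXR when it is high. The list held 35 genes. Of the 31 tested, 13 were higher in mesenteric and 2 in peripheral cells, with a median log2 fold change of -0.20. Srebf2 (-0.93) and the synthesis genes Hmgcs1 (-1.22) and Sqle (-1.46) were among the 13, and Abcg1 (1.46) and Abca1 (0.58) were the 2. Fdps, farnesyl diphosphate synthase of the same synthesis route, which is not in the list, was at 88.6, 57.9, 98.4 and 116 CPM in mesenteric and 30.3, 28.4, 41.0 and 33.4 CPM in peripheral sums. Its sums did not overlap (-1.54 ± 0.13, adjusted p = 1.67e-06). Hmgcs1 held 79.1, 124, 56.2 and 103 CPM in mesenteric and 38.8, 45.9, 49.6 and 34.8 CPM in peripheral sums (adjusted p = 9.11e-05). Abcg1 went the other way, with 16.0, 15.6, 17.8 and 21.1 CPM in peripheral and 5.56, 6.56, 2.34 and 7.10 CPM in mesenteric sums (adjusted p = 0.00145).

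Other called members of the lipid list were genes of fatty acid use and lipoprotein handling. Pdk4, a kinase that turns off pyruvate dehydrogenase when fatty acids are burnt (chr6:5483351-5496309), held 39.8, 136, 25.8 and 39.0 CPM in mesenteric and 7.08, 8.37, 3.30 and 4.58 CPM in peripheral sums. The Xbp1-KO mesenteric sum of library 1 stood above the other sums, and all mesenteric sums lay above all peripheral ones, with a log2 fold change of -3.36 ± 0.23 (adjusted p = 2.04e-07). Angptl4, an inhibitor of lipoprotein lipase, had -1.11 (adjusted p = 4.56e-06), Lpl, the lipase itself, -0.72 (-1.20 without library 1, and past the threshold in 19 of 29 alternatives) and Plin2, a lipid droplet coat protein, -0.74. Fads1 (-0.84), Gpihbp1 (-0.70), Fabp5 (-0.62) and Acadl (-0.48) were also among the 13. Fabp5 was at -0.18 without library 1. Gpihbp1, a capillary protein that anchors the lipase, is also a marker of blood endothelium. Of 11 tested blood markers, Gpihbp1, Vwf, Emcn (-0.77) and Plvap (-0.39) were higher in mesenteric and Kdr in peripheral lymphatic cells, 5 calls against 9.59% of all genes. The values for Apoe (-0.44, adjusted p = 0.141), Fabp4 (0.16, adjusted p = 0.609) and Srebf1 (0.29, adjusted p = 0.496) did not pass the test.

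Because members of the sterol group differed together, the stretches of 250 bases upstream of their start sites were searched for TCACCCCA, the core of a sterol regulatory element, on both strands (TGGGGTGA on the other). Of 16 genes looked up, the 15 called lipid genes and Fdps, 6 had an entry in the promoter table from RefSeq (GRCm38.p6) and 2 held these letters, against 441 of 32851 promoters (1.34%). They are Hmgcs1, at chr13:119690101-119690350 on the plus strand, with the match 137 to 130 bases before the start, and Srebf2, at chr15:82147019-82147268 on the plus strand, with the match 162 to 155 bases before it. Both windows are given 5′ to 3′, with the matching letters in capitals.
Hmgcs1: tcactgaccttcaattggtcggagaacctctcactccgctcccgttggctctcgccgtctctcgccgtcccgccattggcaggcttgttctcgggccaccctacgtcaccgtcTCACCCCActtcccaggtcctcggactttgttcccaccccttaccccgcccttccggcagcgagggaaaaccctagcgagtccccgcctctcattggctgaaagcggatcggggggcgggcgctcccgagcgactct
Srebf2: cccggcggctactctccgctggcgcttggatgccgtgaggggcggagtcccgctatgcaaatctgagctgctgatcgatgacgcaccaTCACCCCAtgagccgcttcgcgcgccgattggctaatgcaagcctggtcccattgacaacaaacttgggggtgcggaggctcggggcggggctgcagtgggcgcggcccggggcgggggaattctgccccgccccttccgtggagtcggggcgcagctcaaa
The match is a description of the letters and shows no binding.

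Retinoic acid, made from vitamin A, is abundant in gut-draining nodes, and its receptors act through paired DNA half-sites. Of 26 listed retinoid genes 10 were tested, and 2 were called, both higher in mesenteric cells (5.89% of all genes) and Cyp26b1 among them, with a median log2 fold change of -0.14 and 8 not called. Cyp26b1, which breaks down retinoic acid, held 9.41, 12.0, 25.8 and 11.8 CPM in mesenteric and 7.44, 0.721, 0 and 0 CPM in peripheral sums. Its difference (-2.32 ± 0.60, adjusted p = 0.0208) was past the threshold in 15 of 22 alternative analyses. It was -7.72 without library 1, where both remaining peripheral sums stood at 0 CPM, so that size cannot be read. It was -1.40 without library 2. Without cells holding a blood gate UMI, 4 of its 46 peripheral and 42 of its 64 mesenteric UMIs remained, and it fell below the count filter. Dhrs3 (-0.23, adjusted p = 0.143) and Tgm2 (0.12, adjusted p = 0.425) were not past it.

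Rarb and Stra6 fell below the filter on low counts and were not tested. Stra6, a membrane transporter of retinol, had 52 UMIs in all peripheral and 95 in all mesenteric cells, which is 3.22 and 17.7 CPM, and 43 of the mesenteric UMIs came from each of 2 sums. Rarb, a retinoic acid receptor gene, had 28 and 32 UMIs, or 1.74 and 5.96 CPM. The half-sites GGTTCA and AGTTCA with 5 bases between them, the response element known from the Rarb promoter, were searched as 1 motif on both strands in 12 retinoid genes, of which 8 had an entry. The motif was found in Rarb alone of these, 53 to 37 bases before the start in the window chr14:16575477-16575726 on the minus strand, and in 2 of 32851 promoters (0.00609%). The window is shown because the gene is the known example of that element, with the match in capitals, in the 5′ to 3′ direction of the gene.
Rarb: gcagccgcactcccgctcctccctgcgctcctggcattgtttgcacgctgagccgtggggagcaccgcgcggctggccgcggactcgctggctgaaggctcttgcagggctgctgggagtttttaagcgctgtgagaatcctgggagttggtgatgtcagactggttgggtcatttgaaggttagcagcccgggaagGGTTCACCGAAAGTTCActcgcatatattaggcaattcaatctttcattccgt

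Of 59 listed positional transcription factors 27 were tested, 3 being higher in each tissue and 21 not called, against 9.59% of all genes called, with a median of -0.08. Hoxb7, a homeobox gene, held 57.8, 55.8, 51.5 and 42.0 CPM in mesenteric and 26.3, 28.3, 25.1 and 34.8 CPM in peripheral sums. It was higher in mesenteric sums without overlap (-0.95 ± 0.15, adjusted p = 0.000527, and -0.59 without library 1), and its neighbour Hoxb8 (-1.07, with overlap) and Meis2 (-0.33) were also higher there. Zfhx4 (2.40) and Prrx2 (0.80) were among those higher in peripheral cells. Zfhx4 had 165 UMIs in peripheral and 9 in mesenteric cells, with 0 in 1 mesenteric sum, and its log2 fold change was 3.39 without library 1 and 1.13 with limma on log2(CPM + 5). Gata6 (0.20, adjusted p = 0.268) and Tbx1 (0.23, adjusted p = 0.126) did not pass. Of 27 tested lymphatic and endothelial transcription factors 4 were higher in peripheral cells, among them Foxc1 (0.68), Hhex (0.50) and Erg (0.31, past the threshold in 10 of 29 alternatives), and Id3 (-0.45) was higher in mesenteric cells, with Maf (0.03) and Klf2 (-0.13) not called.

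Most called interferon response genes and all 4 called chemokine genes were higher in mesenteric cells, while 25 of 35 and 12 of 16 tested members did not pass. Of all genes 9.59% were called, 5.89% higher in mesenteric and 3.7% in peripheral cells. Of 35 tested interferon genes 9 were higher in mesenteric and 1, Gbp3 (0.51, and 0.32 without library 1), in peripheral cells, with a median of -0.10. Isg15, a ubiquitin-like modifier, held 813, 1155, 722 and 1044 CPM in mesenteric and 595, 602, 448 and 563 CPM in peripheral sums. The sums did not overlap (-0.81 ± 0.10, adjusted p = 4.34e-05), as was so for Ifit1, a binder of foreign RNA, at 192 to 337 and 89.9 to 149 CPM (-1.01 ± 0.14, adjusted p = 0.000176, and -0.61 without library 2). Oas1a (-1.08) and Rsad2 (-0.85) overlapped between tissues and passed the test in 10 of 27 and 13 of 29 alternatives. Rsad2 was at -0.08 without library 2 and -1.77 without library 1. Of 16 tested chemokines and their receptors 4 were called, each higher in mesenteric cells, with a median of -0.38. Cxcl10, a ligand of the T cell receptor CXCR3, held 733, 1074, 490 and 942 CPM in mesenteric and 522, 529, 418 and 407 CPM in peripheral sums (-0.83 ± 0.13, adjusted p = 0.000477). The lowest mesenteric sum, WT library 2, lay below the 2 highest peripheral sums. The other 3 were Cxcl16 (-0.69), Cxcl1 (-0.60, past the threshold in 15 of 29 alternatives and at -0.40 without library 2) and Ccl20 (-1.08, past the threshold in 13 of 29 alternatives), and Ackr4, the scavenger of CCR7 ligands, was not called (0.06, adjusted p = 0.862).

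Of 21 listed genes of NF-κB and stress signalling 4 were higher in mesenteric and 3 in peripheral cells, and 14 were not called, against 9.59% of all genes called, with a median of 0.016. Tnf held 45.3, 77.6, 18.7 and 109 CPM in mesenteric and 9.25, 9.38, 7.93 and 20.1 CPM in peripheral sums. Each mesenteric sum was higher than the peripheral sum of its own library and genotype, with 1 overlap between the lowest mesenteric and the highest peripheral sum (-2.65 ± 0.23, adjusted p = 1.67e-06). Tnfaip2 (-0.92), the interleukin 1 receptor gene Il1r1 (-0.94) and Traf1 (-0.40, past the threshold in 7 of 29 alternatives) were the others, and Socs3 (0.55, past it in 17 of 29 and 0.28 without library 1), Birc3 (0.40) and Il6st (0.33) were higher in peripheral cells.

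Of 21 tested scavenger receptors and C-type lectins of sinus cells 4 were higher in mesenteric and 3 in peripheral cells, and 14 were not called, against 5.89% and 3.7% of all genes. Marco, a scavenger receptor that takes up particles (chr1:120474538-120505024), held 1127, 2080, 900 and 985 CPM in mesenteric and 458, 621, 252 and 210 CPM in peripheral sums. All mesenteric sums lay above all peripheral ones (-1.84 ± 0.14, adjusted p = 5.76e-07). A Marco UMI was found in 15.4% to 35.2% of mesenteric and 6.46% to 16.6% of peripheral lymphatic cells thinned to 3000 UMIs, and in at most 3.69% of thinned blood endothelial cells. Before thinning it was found in 16.9% to 37.2% and 8.13% to 19.0%. Clec4g, a lectin of sinusoidal endothelium, held 175, 201, 72.6 and 187 CPM against 74.6, 66.4, 41.0 and 61.8 CPM. Its lowest mesenteric sum lay under the highest peripheral sum (-1.50 ± 0.15, adjusted p = 6.12e-06). Clec1b (-1.04, and -0.65 without library 1) and the lysosomal protein gene Scarb2 (-0.79) were also higher in mesenteric cells. Stab2, a hyaluronan scavenger receptor, went the other way, at 495, 564, 579 and 513 CPM in peripheral and 262, 375, 178 and 281 CPM in mesenteric sums. Its sums did not overlap (0.91 ± 0.13, adjusted p = 0.000262), and Clec14a (0.67) and Msr1 (0.65) were higher in peripheral cells with it.

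Factors that lymphatic cells supply to their surroundings differed in 10 of 22 tested members, 7 of them higher in peripheral cells, against 9.59% of all genes called and 3.7% higher in peripheral cells. Bmp4 held 74.6, 85.4, 122 and 70.5 CPM in peripheral and 45.8, 24.1, 42.2 and 36.7 CPM in mesenteric sums, without overlap (1.11 ± 0.16, adjusted p = 0.00034). Gas6 (0.63), Kitl, stem cell factor (0.61), and Il7, a survival factor of lymphocytes (0.46, past the threshold in 8 of 29 alternatives), were among the 7. Il33, a nuclear alarmin, was higher in mesenteric cells, at 302, 393, 253 and 335 against 177, 186, 104 and 157 CPM. The groups were apart (-1.11 ± 0.10, adjusted p = 3.32e-06). Nts, neurotensin, held 412, 376, 1408 and 269 CPM in mesenteric and 257, 192, 314 and 230 CPM in peripheral sums. The sum labelled WT mesenteric of library 2 stood above all other sums, and the log2 fold change of -1.15 ± 0.24 (adjusted p = 0.00617) was -0.66 without it.

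Growth factor and junction genes gave 6 calls among 23 members and 8 among 29, and genes of lysophospholipid signalling 3 among 13, against 9.59% of all genes. Jag1, a Notch ligand (0.83, adjusted p = 0.000154), Efnb2, an ephrin of vessel and valve patterning (0.69, adjusted p = 0.000267), the receptor gene Kdr (0.40) and Notch1 (0.38) were higher in peripheral cells. Efnb2 held 259 to 339 CPM in peripheral and 168 to 187 CPM in mesenteric sums. Pgf, placental growth factor, was at 20.5, 7.65, 46.9 and 12.4 CPM in mesenteric and 3.81, 1.59, 0.661 and 4.58 CPM in peripheral sums (-2.67 ± 0.38, adjusted p = 0.00023). With limma on log2(CPM + 5) Pgf was at -1.63, and with 3 or 4 marker ranges at equal weight at -0.88 or -3.37. Cldn11, Cavin1, Sema3d and Vangl2 were higher in peripheral cells, and Sema3a (-0.57) and the connexin gene Gja4 (-0.55) in mesenteric cells. Of 13 tested genes of lysophospholipid signalling Enpp2, autotaxin (0.72), and the sphingosine 1-phosphate exporter Spns2 (0.37) were higher in peripheral and Plpp1 (-0.60) in mesenteric cells. Of 21 tested antigen presentation genes B2m (0.26) and Cd74 (0.41) were called, both higher in peripheral cells. Of all genes 9.59% were called, and 3.7% were called higher in peripheral cells. Cd74 was at 0.13 without library 1 and 0.67 without library 2. Of 29 genes of the secretory pathway Sdf2l1, Ssr4, Ssr2 and Sec61g were called, all higher in mesenteric cells with sums that overlapped (-0.77 to -0.37). Sdf2l1 was at -0.40 without library 1, passed in 16 of 29 alternatives and was higher in mesenteric cells in 3 of 4 pairs. Of all genes 9.59% were called, and 5.89% were called higher in mesenteric cells. Hspa5 was not called (0.30, adjusted p = 0.112).

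Of 159 genes called among the 30 named genes and the listed genes, 39 passed in every alternative analysis run for them and 56 in under 70% of those. The latter include the matrix genes Agrn, Eln, Hspg2, Lama4 and Lamc1, the signalling genes Birc3, Il6st, Il7, Notch1, Socs3 and Traf1, the transcription factor genes Erg, Meis2 and Prrx2, and Oas1a, Rsad2, Cd74, Plvap, Sema3a, Spns2, Vangl2, Ssr2 and Sec61g. Without 1 of the libraries 27 of the 159 had a log2 fold change that moved by over 1.5 times.

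**Figure D2:**
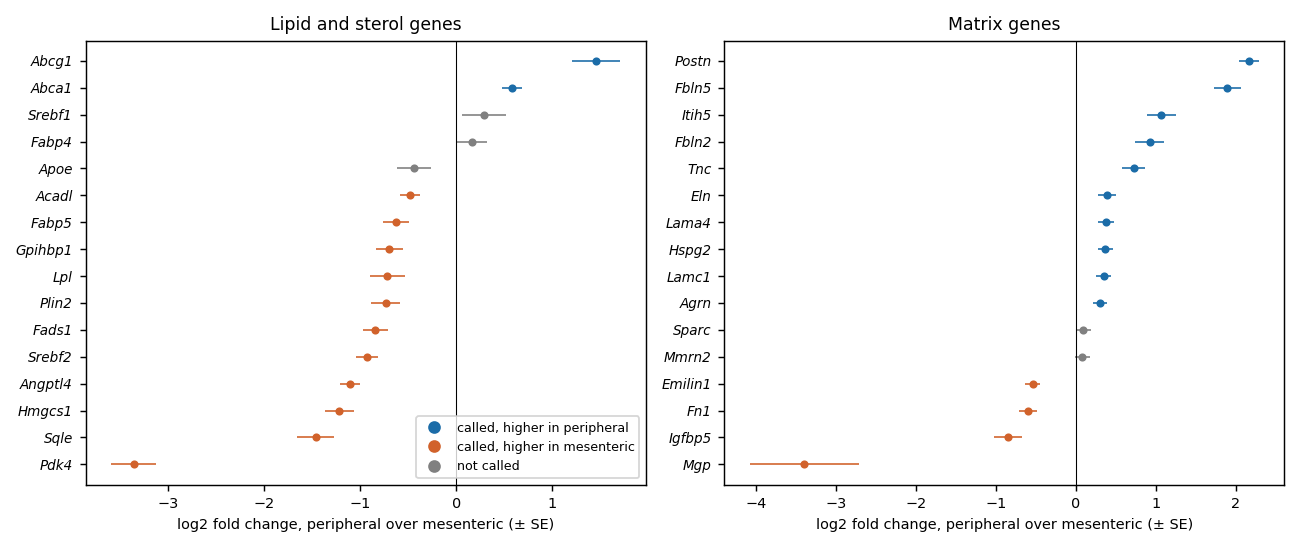
Log2 fold changes, peripheral over mesenteric, with standard errors, for the lipid and sterol genes and the matrix genes named in the text, 1 gene per row; colour marks genes called higher in peripheral, called higher in mesenteric, or not called. Pdk4 lies farthest left at -3.36 among the lipid genes shown, and Postn farthest right at 2.17 among the matrix genes shown.

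Adhesion molecules and markers of other cells need the background beside them. Madcam1, an integrin ligand and marker of the sinus floor, was at 389, 385, 279 and 295 CPM in mesenteric and 222, 192, 127 and 154 CPM in peripheral sums, without overlap (-1.03 ± 0.10, adjusted p = 3.66e-06). Of 29 tested adhesion genes 7 were called, against 9.59% of all genes. Cd44 (1.02), Alcam (0.74), Itga6 (0.63) and Jam3 (0.36) were higher in peripheral cells, Itga6 at 0.36 without library 1 and Jam3 past the threshold in 19 of 29 alternatives. Glycam1, the mucin of high endothelial venules, also passed the test (-1.17, adjusted p = 7.14e-05), at 2216 to 5971 CPM in mesenteric and 961 to 2933 CPM in peripheral sums. Its UMIs were found in 30.3% to 63.6% of thinned lymphatic cells and in 17.0% to 76.3% of thinned blood endothelial cells. The blood cells include high endothelium, which makes Glycam1, so they give no background level, and whether lymphatic cells express it was not tested. The high endothelial enzyme genes Chst4 and Fut7 were at most 2.02 and 3.61 CPM in lymphatic sums. Blood gate genes summed to 17.9 to 103 CPM in peripheral and 39.8 to 168 CPM in mesenteric sums, against means of 1374, 2008 and 621 CPM for Flt1, Ly6c1 and Cd34 in blood cells. The 12 fibroblast genes, of which Cxcl14 was at 0 throughout, summed to 94.5 to 136 CPM in peripheral and 49.2 to 450 CPM in mesenteric sums, highest in the Xbp1-KO sum of library 2. The 8 mural genes summed to 86.5 to 152 and 131 to 322 CPM, the 12 lymphocyte genes to 250 to 407 and 237 to 256 CPM, and the 10 myeloid genes to 9.91 to 20.5 and 6.51 to 17.5 CPM. Ptprc and Cd3e, defining leukocyte and T cell genes, were at most 0.428 and 0.289 CPM in any sum, and 7 of 8 mesothelial and epithelial genes were at 0 throughout. Mural Rgs5 (-0.76) and Kcnj8 (-0.82) passed the test, but in 15 of 28 and 16 of 27 alternatives. Rgs5 was at -0.35 without library 2 and -1.16 without library 1, and Kcnj8 at -0.52 and -1.10 and, with floor-, ceiling- and sinus-type cells (below) at equal weight, at 0.027. Without cells that held UMIs of other cell types 600 genes were called, and without any cell holding a blood gate UMI 963 were.

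Some early response genes differed between tissues. Of 15 listed genes known to rise during tissue dissociation 7 were higher in peripheral and 1, Ier3, in mesenteric cells. Another 7 were not called, and the median was 0.36. Over all genes 9.59% were called, 3.7% higher in peripheral and 5.89% in mesenteric cells. Zfp36 held 1664, 1698, 1617 and 1512 CPM in peripheral and 776, 982, 469 and 1180 CPM in mesenteric sums (0.89 ± 0.15, adjusted p = 0.00128), with no overlap. Fos (0.36, adjusted p = 0.082) and Jun (0.28, adjusted p = 0.059) were not called. Of 15 heat shock genes 4 were higher in mesenteric cells, among them Hspa1a (-0.96) and Hspb1 (-0.61), with a median of -0.32, against 5.89% of all genes. The Hspa1a difference was -0.40 in WT (adjusted p = 0.153) and -1.50 in Xbp1-KO and differed between genotypes, with 663 CPM in the peripheral and 616 CPM in the mesenteric WT sum of library 1 against 672 and 1813 CPM in Xbp1-KO. Hspa1a and Hspa1b are near-identical copies and their counts are uncertain. The dissociation genes took 2.12% to 2.29% of peripheral and 1.28% to 2.12% of mesenteric UMIs, and the heat shock genes 0.942% to 1.15% and 0.892% to 1.89%. In WT the dissociation share was 2.25% in peripheral and 1.33% in mesenteric cells of library 1, and 2.29% and 1.28% in library 2. In Xbp1-KO it was 2.21% and 1.78% in library 1, and 2.125% and 2.123%, nearly equal, in library 2. With the combined share of both lists in place of library in the model, 246 genes were called, and 406 with the library term merely left out. That share was 3.19% to 3.44% in peripheral and 2.22% to 4.01% in mesenteric sums. Because the lists moved in opposite directions, this fit cannot single out the part of either. The part of these genes in the other differences was not tested.

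The lymphatic cells were next divided by marker counts into floor-type cells (Coch, Bmp2, Ccl20, Madcam1), ceiling-type cells (Ackr4, Cd36, Foxc2) and sinus-type cells (Marco, Ptx3, Mrc1, Itih5). A set sum of at least 2, above both other sums, was needed, which gave 1216, 1534 and 756 cells, and 273 cells fell in no range, with 151 at the lowest sum allowed. These are ranges of a score and not cell types. Several set genes differed between tissues over all lymphatic cells, all 4 floor genes being called higher in mesenteric cells. Coch passed in 16 of 29 alternatives and was at -0.28 without library 2, and Ccl20 passed in 13 of 29. In WT of library 2 Ccl20 was lower in the mesenteric sum, at 155 against 192 CPM. The shares of the ranges are therefore not compared, and the set genes have no test inside them. The same test called 1026 of 7608 genes in floor-type cells (13.5%), 592 of 8173 in ceiling-type cells (7.24%) and 286 of 6346 in sinus-type cells (4.51%). Without library 1 the counts were 176, 91 and 72. Of the 29 named genes that defined no range, 21 were tested in floor-type cells and 19 were called in the same direction, against 15 of 19 in ceiling-type and 13 of 16 in sinus-type cells. Of 689 genes called over all cells and tested in all 3 ranges, 27 were called in the same direction in all 3, 244 in 2, 328 in 1 and 90 in 0. The ranges hold the same cells that set the calls over all lymphatic cells. Agreement was thus partly fixed in advance, and these counts are a description and no independent support. Whether a difference itself differed between ranges was not tested.

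Lepr, Fibin, Ccn1, Slc10a6 and Fdps passed the test in each range. Lepr had log2 fold changes of 1.37, 2.01 and 1.92 in floor-, ceiling- and sinus-type cells, and Fdps had -1.16, -1.74 and -2.30. Postn was 2.82 ± 0.14 in floor-type cells, at 1255 to 1611 CPM in peripheral and 156 to 244 CPM in mesenteric sums, and 2.71 ± 0.21 in sinus-type cells. In ceiling-type cells it was -0.62 ± 0.31 (adjusted p = 0.237). The genes chosen in floor-type cells by the rule above were, for peripheral nodes, Ngfr, the low-affinity neurotrophin receptor (4.31), the actin-severing scinderin gene Scin (3.86), Igkc (3.68), Olfml2a (3.26) and Postn. Igkc, an immunoglobulin gene of B lineage cells, was at 920 CPM in the Xbp1-KO peripheral sum of library 1 and at most 37.3 CPM in the other sums. For mesenteric nodes they were the hormone gene Fgf23 (-2.92), Pdk4 (-2.59), Tnf (-2.58), Islr (-2.29) and Fcor (-2.04). Ngfr held 27.1, 40.5, 43.6 and 42.9 CPM in peripheral and 0, 6.75, 0 and 1.5 CPM in mesenteric floor-type sums, which do not overlap.

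In ceiling-type cells the named genes were Spock3 (3.45), the decorin gene Dcn (2.15), Lepr, the muscarinic receptor gene Chrm3 (1.88) and Myof (1.77) for peripheral nodes. For mesenteric nodes they were Mgp (-4.31), Vwf (-3.62), Cryab (-3.25), Gucy1a1 (-3.05) and Fxyd2 (-2.35), a regulator of the sodium pump. Dcn held 133, 112, 102 and 83.9 CPM in peripheral and 26.9, 4.32, 49.1 and 17.2 CPM in mesenteric ceiling-type sums, apart by 2.15 ± 0.24 (adjusted p = 1.12e-06), whereas over all lymphatic cells it was 0.17 (adjusted p = 0.696). In sinus-type cells the sodium pump regulators Fxyd1 (2.29) and Fxyd6 (1.94) stood with Ctnnal1 (3.00), Postn and Fibin (2.34) for peripheral nodes. Fxyd6 was at 301, 291, 430 and 332 CPM in peripheral and 66.6, 92.8, 81.5 and 97.3 CPM in mesenteric sums, without overlap. For mesenteric nodes the sinus-type genes were Pdk4 (-3.68), Pla2g7, an acetylhydrolase of platelet-activating factor (-2.70), Nav3 (-2.41), and the sterol synthesis genes Idi1 (-2.40) and Cyp51 (-2.31). Idi1 held 55.8, 49.3, 67.9 and 72.4 CPM in mesenteric and 9.62, 12.1, 12.6 and 8.43 CPM in peripheral sums (adjusted p = 2.66e-05).

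**Figure D3:**
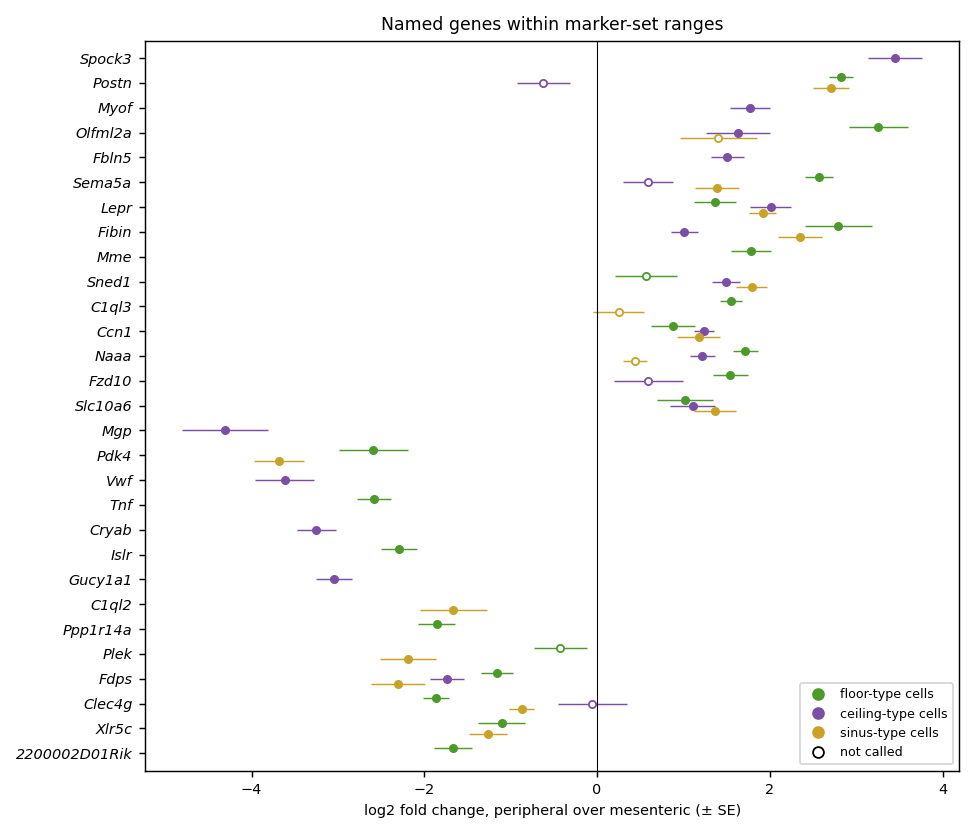
Log2 fold change, peripheral over mesenteric, with its standard error, of the 29 named genes that define no range, in floor-type, ceiling-type and sinus-type lymphatic cells. Open points did not pass the test, and genes below the count filter in a range have no point there. Postn lies at 2.82 and 2.71 in floor- and sinus-type cells and at -0.62 in ceiling-type cells.

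Within WT alone 410 of 10269 genes differed between tissues (3.99%), and within Xbp1-KO alone 397 did (3.87%). The difference between tissues itself differed between genotypes for 25 genes (0.243%), 2 with a change toward peripheral and 23 with a change toward mesenteric nodes in Xbp1-KO. One of the 25, Ly6c1, served in the gate and is left out. Cxcl12, the ligand of CXCR4, held 69.9 and 15.9 CPM in the WT peripheral sums, 18.8 and 4.68 CPM in the WT mesenteric sums, 51.4 and 9.61 CPM in the Xbp1-KO peripheral sums and 206 and 101 CPM in the Xbp1-KO mesenteric sums, library 1 first. It was thus higher in peripheral cells in WT (1.74 ± 0.31, adjusted p = 0.0023) and higher in mesenteric cells in Xbp1-KO (-2.54 ± 0.22), in both libraries. The difference between genotypes was -4.28 ± 0.37. Fibroblasts of the node express Cxcl12 strongly, and the 12 fibroblast genes summed to 196 and 450 CPM in the Xbp1-KO mesenteric sums and to at most 136 CPM in the other sums. In the sum of 450 CPM, the chemokine gene Ccl19 made up 328 CPM. Dcn, 1 of the 25 genes, made up 117 CPM of the sum of 196 CPM, and it stood at 70.9 to 88.2 CPM in the peripheral sums. The fibroblast receptor genes Pdgfrb and Pdgfra were at most 2.29 and 3.28 CPM in any sum. The collagen genes Col1a1 (16.4 and 6.51 CPM), Col1a2 (12.0 and 8.87 CPM) and Col3a1 (6.56 and 10.7 CPM) were highest in the 2 Xbp1-KO mesenteric sums, library 1 first, and Lum, a proteoglycan gene of fibroblasts, was at 12.0 and 5.92 CPM there and at 0 in the other 6. Of the 12 fibroblast genes, 6 were higher in both of these sums than in any other. The 8 mural genes together were also highest there, at 200 and 322 CPM against at most 152 CPM elsewhere, a total carried by Rgs5 (159 and 235 CPM) and Kcnj8 (29.5 and 42.0 CPM). The other 6 mural genes were not highest in both sums, and Acta2, smooth muscle actin, was at 0 and 0.592 CPM. The 3 blood gate genes summed to 168 and 97.0 CPM in them, against 59.9 to 103 CPM in the other sums of library 1 and 17.9 to 50.9 CPM in those of library 2. Without cells holding a blood gate UMI 14 genes were called in place of 25, and the part of the fibroblast and mural genes was not tested. Dcn, itself on the fibroblast list, changed from 1.07 in WT to -0.47 in Xbp1-KO. Tbxa2r, the thromboxane receptor gene, was higher in mesenteric cells of WT (-1.44) and at 0.06 in Xbp1-KO. Fzd6, a Wnt receptor gene, was at -0.22 in WT and 0.82 in Xbp1-KO. Ly6a, Csrnp1 and Phlda1 had differences of -2.29, -1.66 and -1.66; Ly6a belongs to a family of similar genes and its counts are uncertain. Among the rest were Fos, Egr1 and Atf3 and the heat shock genes Hspa1a, Hsph1, Hsp90aa1, Dnajb1, Dnaja4 and Bag3. The dissociation and heat shock genes together took 2.22% and 2.55% of UMIs in the WT mesenteric sums, 3.22% and 4.01% in the Xbp1-KO mesenteric sums and 3.19% to 3.44% in the peripheral sums, and their part in the difference between genotypes was not tested. Without the library term 0 genes passed edgeR's test and 304 had an unadjusted p under 0.05, and DESeq2 called 23. Without 1 sum the number ran from 5, without the Xbp1-KO peripheral sum of library 2, to 62, without the Xbp1-KO mesenteric sum of library 1.

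**Figure D4:**
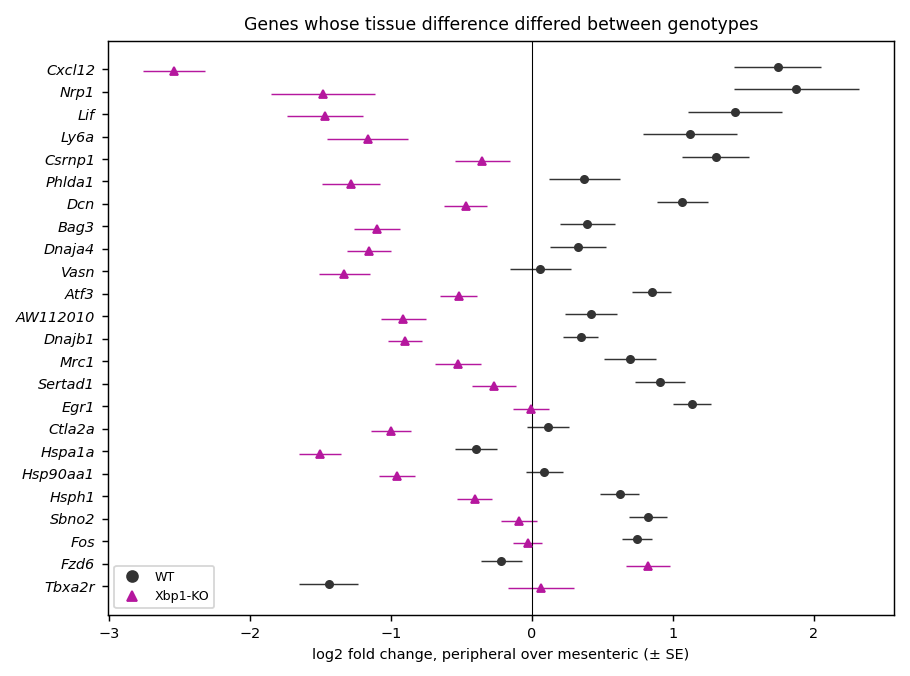
Log2 fold change, peripheral over mesenteric, with its standard error, in WT and in Xbp1-KO lymphatic cells for the 24 genes whose tissue difference differed between genotypes and that were not gate genes. Cxcl12 lies at 1.74 in WT and -2.54 in Xbp1-KO.

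The same tissues were compared in the 5753 blood endothelial cells, taken by the reverse of the marker rule, to see which differences were shared. There 572 of 10291 genes differed (5.56%). Of 853 genes called in lymphatic cells and tested in blood cells, 112 were also called in the same direction and 39 in the opposite direction. In 1 model over both classes of cells, the tissue difference differed between classes for 340 of 11121 genes (3.06%). Among these were 14 of the 30 named genes. The named genes were chosen for large lymphatic differences, which this model uses again, so the 14 give no independent support for a lymphatic difference. They include Fibin, Plek and Marco, whose blood counts were too low or are read as background (below). Both classes share their pools and libraries. Median depth differed too, at 2490 to 3814 UMIs per blood cell.

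Myof was higher in peripheral lymphatic cells (2.15) and in mesenteric blood cells (-1.37 ± 0.28, adjusted p = 0.0181), a difference between classes of 3.42 ± 0.33. Fbln5 (blood -0.51) and Slc10a6 (blood -0.99) likewise had opposite called directions, with differences of 2.42 and 2.21. Sema5a, Lepr, Olfml2a, Ccn1 and Sned1 also differed between classes (by 2.45, 2.02, 1.63, 1.31 and 1.02). In blood cells their log2 fold changes were -0.60, -0.39, 0.31, 0.03 and 0.41, with adjusted p from 0.265 to 0.978 in edgeR's test. The gate gene Prox1 was at 26.5 ± 11.9 CPM (SD, n = 4) in peripheral and 9.02 ± 5.13 CPM in mesenteric blood sums. The lymphatic genes Postn, at 29.2 ± 11.3 and 7.86 ± 8.44 CPM, and Marco, at 14.8 ± 16.6 and 5.96 ± 5.73 CPM, lay at like levels and in the same order there. A Prox1 UMI was found in 1.80% to 5.25% of blood cells, a Postn UMI in 0% to 3.93% and a Marco UMI in 0.147% to 4.55%. These levels are read as background, and no tissue difference of Postn or Marco in blood cells is drawn from them. Mgp (blood 0.02) and Cryab (blood -0.18) differed between tissues in lymphatic but not detectably in blood cells, with differences between classes of -3.50 and -2.23. Vwf was higher in mesenteric nodes in blood cells too, at 182 ± 20.2 CPM against 51.4 ± 5.64 CPM (-1.94), as were Pdk4 (-1.69), Fdps (-0.83) and 2200002D01Rik (-1.21). Of these 4, Pdk4 alone had a called difference between classes (-1.64). Fibin and Plek were below the count filter in blood cells, with 65 and 48 UMIs in all of them, so the size of their difference between classes cannot be read.

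**Figure D5:**
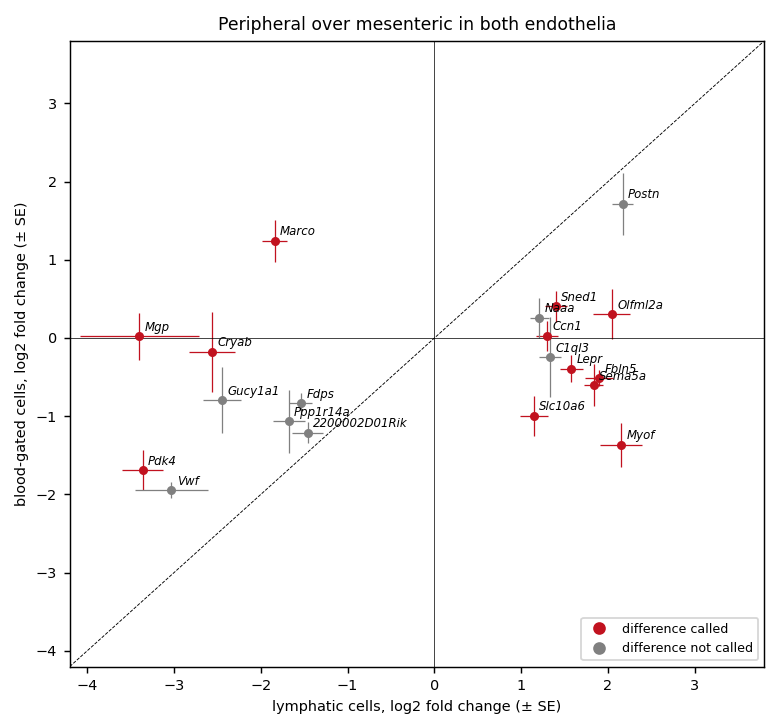
Log2 fold change, peripheral over mesenteric, of the named genes in lymphatic and in blood endothelial cells, with standard errors. Myof lies at 2.15 in lymphatic and -1.37 in blood cells, and Vwf at -3.03 and -1.94.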

How the data were processed

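RNA of single sorted endothelial cells was measured in 2 droplet libraries with 4 hashtagged pools in each. The values are UMI counts per gene and barcode, deposited by the authors as raw counts. Per the file headers they come from Cell Ranger 6.0.1, while the submitters' processing notes name Cell Ranger 6.1 and mm10. The labels differ on the chemistry of the kit. Library 1 held 33024170 gene UMIs in 7709 barcodes and library 2 held 14744778 in 2903; 0 columns were left without a sample.

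The barcodes were filtered and gated as the report states, with no removal of doublets beyond the tag rule; Scrublet in scanpy 1.11.5 marked 81 of the lymphatic cells. Too few were marked in library 2 (3 of 2742) for it to have worked there. The libraries share 3 barcodes, 1 among lymphatic cells. Raw counts were summed per library and pool and tested in edgeR 4.0.16 (R 4.3.3) with TMM scaling, filterByExpr grouped by tissue, glmQLFit and glmQLFTest, and an adjusted p under 0.05. Alternatives used DESeq2 1.42.0 and limma 3.58.1 (on log2(CPM + 5), with and without equal weights of the ranges). The fits were tested on simulated data.

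Sums of 1 library share a droplet run, per the labels, so library is the replicate block. Deviations of same-library sums from their group means correlated at 0.247 and 0.255 within a genotype and at 0.0656 to 0.138 between genotypes. With 2 sums per group the deviations mirror each other, so both libraries give the same values. Sums of 1 library and genotype also share their sex pattern. The comparison with blood cells was added after the data were seen. The cells, lists and tests were chosen with earlier results of these data known. Named genes were, among called genes with a mean of at least 20 CPM and the same direction in all 4 pairs, the 15 with the largest change in each direction (5 in a range or between genotypes), and of each list up to 4 called members and up to 2 uncalled ones; other listed genes are given by values or counts, and a few listed genes are not reported here. Positions were found for 30 of 30 named genes in GENCODE M21. Intervals and tests cover the spread between sums, and whether the counting used intronic reads or strand is not given in the sources used here, so overlapping and near-identical genes are uncertain.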

Additional observations from a re-analysis of the deposited data

Results flagged for a closer look

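In 11 of 206 groups of 4 sums examined (a named or listed gene in 1 tissue), 1 sum lay apart from the other 3, and chance alone sets apart about 1 group in 20. The sum labelled WT mesenteric of library 2, the smallest, was the high one for Mgp at 166 CPM (others 6.51 to 30.8), Emcn at 202 CPM (61.2 to 68.0), Plpp1 at 129 CPM (74.4 to 83.4), Nts at 1408 CPM (269 to 412) and Cyp26b1 at 25.8 CPM (9.41 to 12.0). Pdk4 was high in the Xbp1-KO mesenteric sum of library 1 at 136 CPM, where the others held 25.8 to 39.8. Tnf was high in the Xbp1-KO peripheral sum of library 2 at 20.1 CPM, and Cyp26b1 in the WT peripheral sum of library 1 at 7.44 CPM. The low ones were Hspb1 in the WT mesenteric sum of library 1 at 1172 CPM, Sema3a in the WT peripheral sum of library 2 at 102 CPM and Ptx3 in the Xbp1-KO peripheral sum of library 2 at 32.0 CPM.

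For 24 genes the difference between tissues differed between genotypes by a test of that difference. Its size, Xbp1-KO minus WT on the log2 scale, was positive for Tbxa2r (1.505) and Fzd6 (1.043). It was negative for Cxcl12 -4.284, Nrp1 -3.359, Lif -2.909, Ly6a -2.285, Csrnp1 -1.657, Phlda1 -1.656, Dcn -1.538, Bag3 -1.493, Dnaja4 -1.484, Vasn -1.390 and Atf3 -1.371. It was negative as well for AW112010 -1.332, Dnajb1 -1.244, Mrc1 -1.221, Sertad1 -1.181, Egr1 -1.142, Ctla2a -1.112, Hspa1a -1.106, Hsp90aa1 -1.045, Hsph1 -1.029, Sbno2 -0.915 and Fos -0.774.

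For 14 of the 30 named genes the difference between tissues differed between lymphatic and blood endothelial cells. The 30 were chosen for their lymphatic difference, which that test uses again, so this number is a description. Lymphatic minus blood, the difference was Myof 3.416, Sema5a 2.451, Fbln5 2.422, Slc10a6 2.207, Lepr 2.017, Olfml2a 1.633, Ccn1 1.308 and Sned1 1.016, and it was Mgp -3.503, Marco -2.776, Fibin -2.312, Cryab -2.230, Plek -1.995 and Pdk4 -1.639. The values of Fibin and Plek rest on 65 and 48 UMIs in all blood cells and that of Marco on 272, so their sizes cannot be read.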

How the results depend on the processing

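Of the 985 genes called between tissues, all kept their sign under DESeq2, which called 592 (209 higher in peripheral), and without the replicate block, which called 406. The block of 4 library-genotype pairs called 953. Under DESeq2, which tested 12805 genes, the median log2 fold change was -0.10. With no filter on low counts 1260 were called, 619 of them higher in peripheral cells. The limma fits on log2(CPM + 5) gave 691 without weights (419 higher in peripheral), 399 with 4 ranges at equal weight (247 higher in peripheral) and 829 with 3, so the majority turned without weights as well. The set of 4 counts the cells of no range, 3 to 99 per sum, as a range; it put Fbln2 at 0.03, against 0.90 without weights and 0.94 with 3. Mgp was at -2.40, -2.12 and -2.43 in these fits and Cyp26b1 at -1.54, -1.19 and -1.32. Without cells holding UMIs of other types, which left 3164 cells, 600 were called, and without cells holding blood-marker UMIs, which left 3173, 963 were; the cause was not tested. Sums thinned to the smallest gave 311 and equal cells per sum 175. The stress share in place of library gave 246. Leaving out 1 library or sum gave 257 to 959. Within WT (410 calls) DESeq2 gave 256, no filter 623, no replicate block 44, thinning 164 and leaving out a sum 148 to 498. Within Xbp1-KO (397) the values were 191, 635, 124, 114 and 125 to 481. For the difference between genotypes (25) no filter gave 125, no replicate block 0, thinning 6, leaving out cells with blood-marker UMIs 14, and leaving out a sum 5 to 62. In floor-type cells (1026) DESeq2 gave 595, no replicate block 848 and leaving out a library 176 to 802. In ceiling-type cells (592) the same gave 377, 221 and 91 to 695, and in sinus-type cells (286) 161, 206 and 72 to 367. In blood cells (572) no replicate block gave 262 and leaving out a library 313 to 878. For the difference between classes (340) no filter gave 569 and leaving out a library 269 to 435. The alternatives for blood cells, for cells with blood-marker UMIs, for the stress share and for limma without weights or with 3 ranges were chosen after seeing the data. Of 4827 values of named genes under alternatives 3821 stayed on their side of the threshold, 1005 no longer passed it and 1 changed sign, Kcnj8 with 3 ranges at equal weight (0.027). Depth limits the sum labelled WT mesenteric of library 2 most, with 65 cells.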
